A study of Mus musculus with 31 samples.

Results

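Imprinted genes are expressed mainly or only from the copy inherited from 1 parent. A list of 37 of them, taken by name, was followed here through 31 one-colour Agilent arrays of mouse brain, out of 21154 genes that the array's RefSeq accessions named. It was chosen with earlier results of these data known. Shares of all features set beside its counts describe the list and are no independent test of it. The list holds 19 genes classed as expressed from the paternal copy and 14 classed as expressed from the maternal copy. The other 4 (Grb10, Gnas, Blcap and Inpp5f), whose expressed copy depends on the transcript or the cell type, were put in neither class. Classes were assigned by name. The copy expressed was not measured here, and a class may not hold in every cell type of the brain. Each gene was read from its brightest probe. Of the 37, 35 had a probe. Rian and H19 had none by accession, although 5 probes carried the bare name H19, and no value is given for either gene. The probe of Phlda2 was well above background on 0 arrays and was not tested. The remaining 34 genes, 19 paternal, 11 maternal and 4 of neither class, were tested among 30165 features.

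The study compared repeated cross-fostering (RCF) with handling in females of C57BL/6J (C57) and DBA2/J (DBA), and took 2 brain regions at 12 weeks of age: the mPFC, the medial part of the prefrontal cortex, and the NAc, or nucleus accumbens, in the ventral striatum. Litters of the RCF groups were passed to a new foster mother each day from day 1 to day 4 after birth, and control litters were lifted out and put back with their own mother on the same days. All pups stayed with their last mother until weaning on day 28, no mouse was transgenic, and at most 2 animals came from one cage or litter. The 8 groups, given as arrays and then as samples after averaging, were C57 mPFC control (3 arrays, 3 samples), C57 mPFC RCF (4 and 4), C57 NAc control (4 and 2), C57 NAc RCF (4 and 4), control animals of DBA mPFC (4 and 3), RCF animals of DBA mPFC (4 and 3), DBA NAc control (4 and 4) and DBA NAc RCF (4 and 4). The labels do not say that each array came from a separate mouse, so p-values measure the spread between these samples.

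Between 58.6% and 81.9% of probes were well above background on an array. A scanner file was given the sample whose deposited value column it matched (r of at least 0.999994, against at most 0.9987 with any other column), and for 29 of 31 files that was not the sample it was listed under. Within a group, the arrays of 4 pairs differed by 1.36 to 2.42 times as much as repeat spots of 1 array do, against 5.48 to 16.06 times in all other of the 45 pairs. Each of the 4 was averaged, which left 27 samples. Markers of striatal and cortical neurons, strain markers or Xist went against the label in 6 samples: C57 mPFC control 3, C57 mPFC RCF 1, C57 NAc control 1 and 3, C57 NAc RCF 1, DBA mPFC control 1 and DBA NAc control 4. The library labelled DBA mPFC control 1 had an Xist level of -5.87, against at least -0.28 in each of the other samples. Results are therefore given for all 27 samples and for the 21 whose markers matched their labels. Among the 21, C57 NAc control has 1 sample. Fits of the 21 that use this group assume that it varies like the others. Each slide held 1 strain and 1 tissue, so slide and strain, or slide and tissue, cannot be told apart. Control and RCF arrays lay in different columns of a slide, with the exception of DBA NAc, so treatment and slide column cannot be told apart in the other 3.

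In genomic imprinting, methyl groups placed on DNA in the egg or the sperm mark stretches that control whole clusters of neighbouring genes, so that only 1 parental copy of each gene is read. The zinc-finger protein ZFP57 binds a methylated TGCCGC site and protects these marks. Many imprinted genes act in growth, in feeding and in maternal behaviour, and the hypothalamus and other ventral parts of the forebrain are known for high expression of several of them. Levels are on a log2 scale, with the 75th percentile of each array taken off, so 0 is the signal that 3 in 4 probes of that array stay under. The level of one gene is not compared with that of another. In tissue samples such as these, fewer cells of a type and less RNA per cell cannot be told apart.

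**Figure D1:**
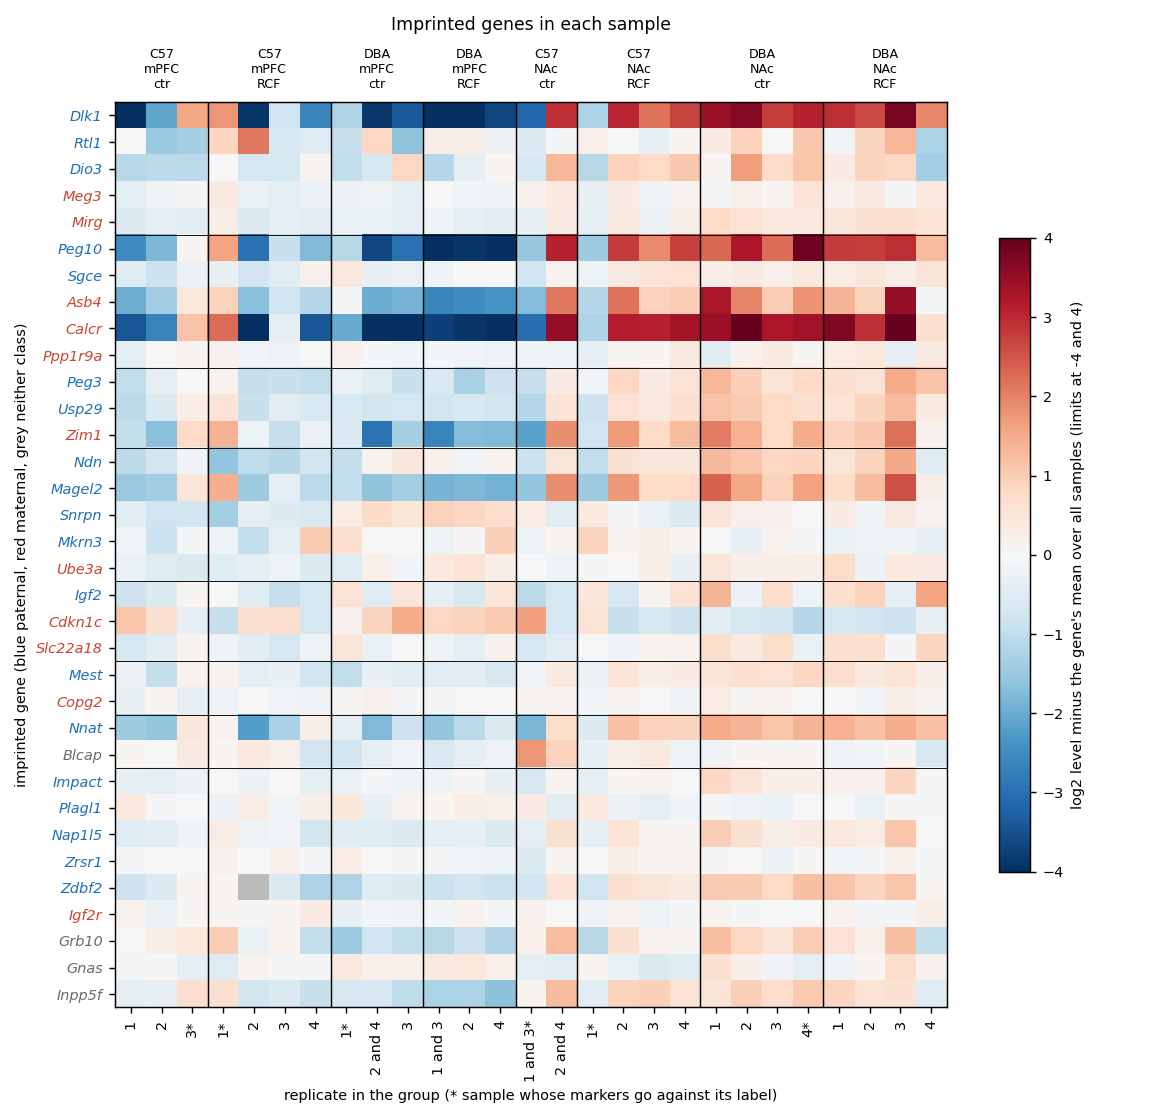
Level of each of the 34 tested imprinted genes in each of the 27 samples, as log2 level minus the gene's own mean over all samples (colour, limited at -4 and 4). Columns are samples in their 8 groups, an asterisk marks the 6 samples whose markers went against their label, rows are grouped by genomic cluster and the grey cell is a spot marked as an outlier. Dlk1, Peg10, Calcr, Asb4, Zim1 and Magel2 are red in DBA NAc and blue in DBA mPFC.

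The widest differences among the imprinted genes lay between the 2 brain regions. In DBA mice 20 of 34 imprinted genes were higher in NAc than in mPFC, where 19.5% of all features were higher, and 2 of 34 were lower, where 37.2% of all features were lower (limma, adjusted p under 0.05). The median difference was 0.73 on the log2 scale over the imprinted genes and -0.13 over all features. Of the 19 paternal genes 12 were higher and 1 lower, with a median of 0.90. Of the 11 maternal genes 6 were higher and 1 lower, with a median of 0.36, and 2 of the 4 genes of neither class were higher. Without the 2 DBA samples in doubt the counts were again 20 higher and 2 lower, against 19.9% and 36.9% of all features, and all 22 genes kept their call. Of the 22, 19 stayed called within control mice alone and 18 within RCF mice alone. Quantile normalization moved the median over all features to -0.02 and the share of higher among all called features from 34.4% to 46.6%; the 22 called genes kept their sign under that and both other scalings.

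Of the 3 genes with the largest regional differences, Calcr and Peg10 lie in the Peg10 cluster of chromosome 6 and Dlk1 on chromosome 12. Calcr, the calcitonin receptor, ran from -2.21 to 1.60 (median 0.57, n = 8) in DBA NAc and from -7.78 to -4.86 (median -7.02, n = 6) in DBA mPFC, with no overlap. It was well above background on 1 of 8 DBA mPFC arrays and on 8 of 8 DBA NAc arrays, so the difference of 7.15 ± 1.08 (SE, adjusted p = 1e-05) is given as at least 80.8-fold. Peg10, a gene derived from a retrotransposon and needed for the placenta, ran from -2.30 to 0.32 (median -0.79) in NAc and from -8.20 to -4.69 (median -7.34) in mPFC. It too was well above background on 1 of 8 mPFC arrays, and its difference of 6.14 ± 0.76 (adjusted p = 7.9e-07) stands for at least 32.8-fold on this probe. A second, slightly dimmer probe of Peg10 gave 2.28 for the same contrast. That probe was well above background on 27 arrays, against 21 for the brightest, so the bound holds for 1 probe and not for the gene.

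Asb4, an adaptor of ubiquitin ligases expressed in hypothalamic neurons, ran from -2.50 to 1.02 in NAc and from -5.06 to -2.55 in mPFC, a difference of 3.61 ± 0.64 (12.2-fold, adjusted p = 6.6e-05). The lowest NAc sample, RCF 4, lay next to the highest mPFC sample, control 1, whose markers went against its label. A dimmer probe of Asb4 gave -0.77 for the same contrast, so the 2 probes of this gene disagreed. Sgce, which encodes epsilon-sarcoglycan and starts beside Peg10, differed by 0.39 ± 0.16 (1.31-fold, adjusted p = 0.044). Ppp1r9a, the actin-binding protein neurabin, did not pass the test (0.16), and its dimmer probe gave 0.81.

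In the Dlk1-Dio3 cluster of chromosome 12, Dlk1, a membrane protein related to Notch ligands, ran from 2.34 to 4.20 (median 3.43, n = 8) in DBA NAc and from -3.81 to -0.78 (median -3.34, n = 6) in DBA mPFC. The difference was 6.42 ± 0.97 (85.4-fold, adjusted p = 1e-05), and its second probe gave 6.98. The maternal non-coding RNAs of the cluster moved far less. Meg3 was higher by 0.36 ± 0.12 (1.29-fold, adjusted p = 0.014), and Mirg, a host of microRNAs, by 0.87 ± 0.13 (1.83-fold, adjusted p = 5.9e-06). Dio3, which inactivates thyroid hormone, differed by 0.90 without passing the test, and Rtl1, another retrotransposon-derived gene, by 0.64; Rtl1 was well above background on 8 of 31 arrays.

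The Peg3 cluster of chromosome 7 moved as a block. Peg3, a zinc-finger protein known for its part in maternal behaviour, ran from 1.99 to 2.96 in DBA NAc and from 0.18 to 1.22 in DBA mPFC, a difference of 1.66 ± 0.23 (3.15-fold, adjusted p = 3.7e-06). Usp29, which starts beside Peg3 on the other strand and encodes a ubiquitin protease, ran from 3.35 to 4.26 and from 2.25 to 2.38, a difference of 1.53 ± 0.27 (2.90-fold, adjusted p = 6.2e-05). Zim1, a maternally expressed zinc-finger gene, ran from -3.96 to -1.93 and from -7.10 to -4.70, a difference of 3.1 ± 0.56 (adjusted p = 8e-05) and 4 of 8 mPFC arrays gave a signal well above background. The NAc and mPFC values of these 3 genes did not overlap, and the maternal gene of the cluster had the same direction as the paternal ones.

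In the Prader-Willi/Angelman cluster, the directions were mixed. Magel2, a MAGE-family protein of hypothalamic neurons, ran from 0.24 to 2.55 in DBA NAc and from -1.89 to -1.0 in DBA mPFC, a difference of 2.98 ± 0.54 (7.92-fold, adjusted p = 8.6e-05). Ndn, its neighbour and relative necdin, was higher by 0.83 ± 0.30 (1.78-fold, adjusted p = 0.022), with overlapping values. Snrpn, the neuronal spliceosome protein SmN, went the other way: it ran from 4.77 to 5.44 in NAc and from 5.22 to 5.84 in mPFC, with overlap, and was lower (difference -0.48 ± 0.15, 1.39-fold, adjusted p = 0.012). Ube3a, the ubiquitin ligase of Angelman syndrome, and Mkrn3 did not pass the test (0.18 and -0.39). The second probe of Mkrn3 gave 0.47, the other direction.

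Nnat, which encodes the small membrane protein neuronatin and lies in an intron of Blcap, ran from 4.10 to 4.46 in DBA NAc and from 1.22 to 2.61 in DBA mPFC, a difference of 2.34 ± 0.42 (5.06-fold, adjusted p = 7.3e-05). Its second probe gave 2.27. Blcap itself differed by 0.30 and did not pass. Cdkn1c, the cyclin-dependent kinase inhibitor p57 of the Igf2 cluster, was lower in NAc: it ran from -1.11 to -0.29 in NAc and from 0.20 to 1.52 in mPFC (difference -1.58 ± 0.34, 2.98-fold, adjusted p = 0.00045). Its neighbour Slc22a18, a transporter, was higher by 0.48 ± 0.18, and the growth factor Igf2 differed by 0.56 without passing.

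Among genes outside these clusters, Zdbf2 was higher by 1.69 ± 0.26 (3.23-fold, adjusted p = 1.3e-05). Its spot was marked as an outlier in C57 mPFC RCF 2, which the fit dropped for this gene. Inpp5f, a phosphoinositide phosphatase, was higher by 1.66 ± 0.27 (3.16-fold, adjusted p = 2.9e-05), and Grb10, an adaptor of the insulin receptor that is read from the paternal copy in neurons, by 1.62 ± 0.31 (3.08-fold, adjusted p = 0.00014). Mest was higher by 1.10, the nucleosome assembly protein Nap1l5 by 0.96 and Impact, an inhibitor of the kinase GCN2, by 0.54. Copg2, which overlaps Mest, differed by 0.09, and Igf2r, Zrsr1, Plagl1 and Gnas by 0.13, 0.01, -0.23 and -0.15. None of these 5 passed the test, which was run on the brightest probe. Second probes of Copg2 and Gnas gave 0.50 and 0.43, and the dimmer probes of Plagl1 gave -0.29, 0.13 and -1.30.

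**Figure D2:**
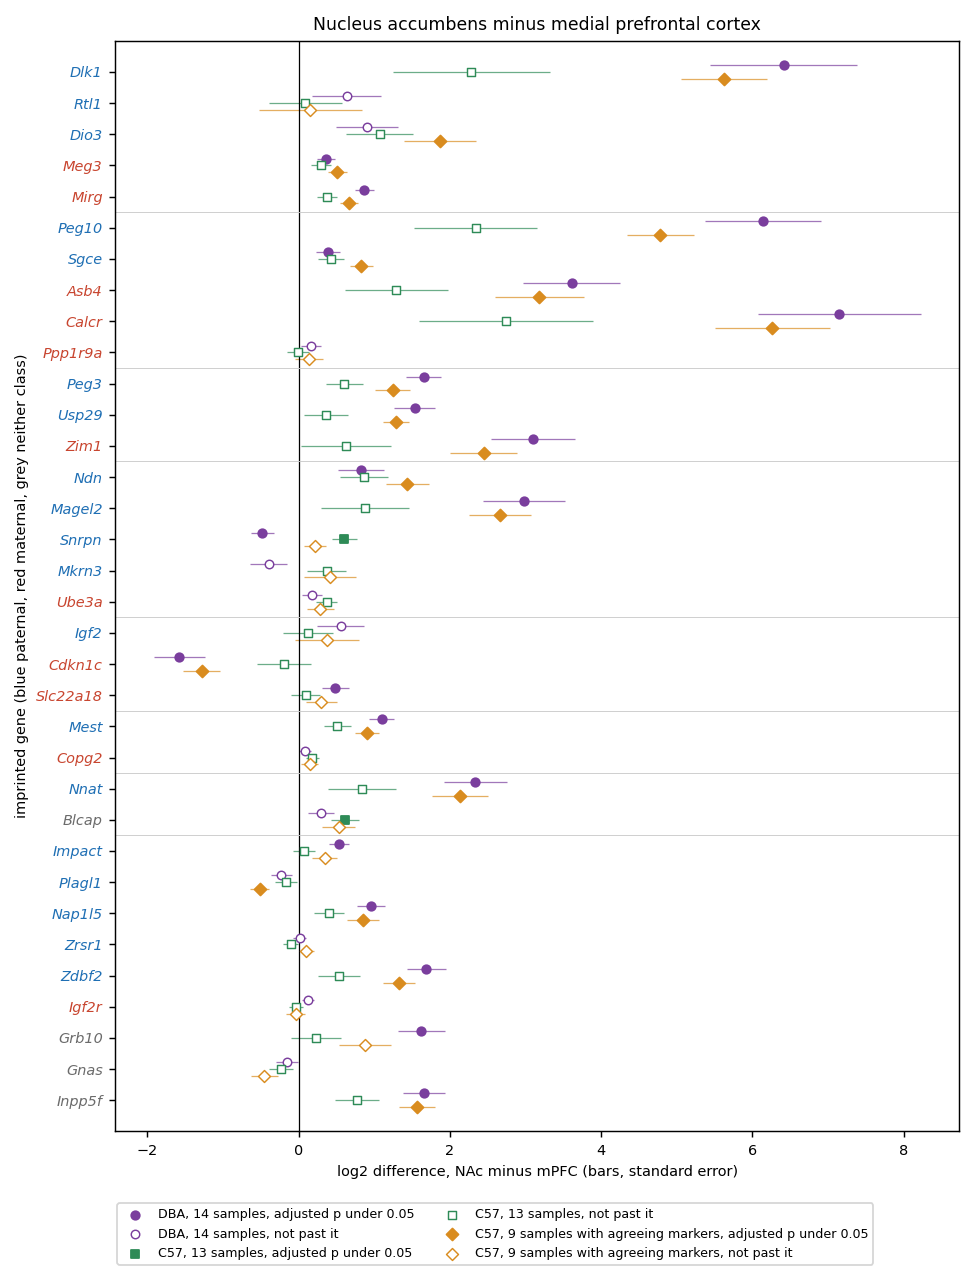
Difference between NAc and mPFC for each tested imprinted gene (log2, bars are standard errors): circles for the 14 DBA samples, squares for all 13 C57 samples and diamonds for the 9 C57 samples whose markers matched their labels. Filled symbols passed an adjusted p under 0.05. Diamonds lie near the circles for Dlk1 (5.63 against 6.42) and Calcr (6.26 against 7.15), and squares lie lower (2.29 and 2.75).

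In C57 mice the same contrast depended on the samples in doubt. Without them C57 NAc control was 1 sample, the mean of 2 near-identical arrays. It weighed as much as the 3 C57 NAc RCF samples together, so the C57 values without the samples in doubt lean on it. The C57 samples in doubt were picked by striatal and cortical markers, which themselves separate the 2 regions. Leaving them out therefore favours a wider regional difference and a closer likeness to DBA. The C57 values without them are a description and no independent test. With all 13 C57 samples 2 of 34 imprinted genes were higher in NAc, where 3.74% of all features were higher, and 0 were lower, where 6.32% were lower; the 2 were Snrpn (0.60 ± 0.17, adjusted p = 0.024) and Blcap (0.62 ± 0.18, adjusted p = 0.035). The share of higher among all called features was 37.2%, and 61.9% when the percentile was taken over probes above background on all arrays. Leaving out C57 NAc RCF 1 or C57 mPFC RCF 1 alone gave 9 higher, and C57 mPFC control 3 alone 5. Without C57 mPFC control 2 it was 0, and without C57 mPFC control 1, C57 NAc RCF 2 or C57 NAc RCF 3 it was 1. Shares of all features in these fits are not given, so the counts show only how the calls depended on single samples. With the 9 C57 samples whose markers matched their labels, 18 were higher and 2 lower, against 11% and 14.5% of all features, and neither Snrpn nor Blcap passed. Of these 18, 17 were also among the 20 that were higher in DBA without the samples in doubt, which is 94.4% of the C57 list and 85% of the DBA list. Over all features called higher the shared ones were 68.8% of the C57 list and 38.1% of the DBA list. Dio3 was called in C57 alone (1.87) and Grb10, Impact and Slc22a18 in DBA alone; the differences between strains in these 4 did not pass the interaction test without the samples in doubt. Cdkn1c was lower in both strains, and the zinc-finger gene Plagl1 was lower in C57 (-0.51 ± 0.13, adjusted p = 0.0067). The direction was the same in both strains, which share no sample, in 31 of 34 genes and in 68.5% of all features.

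The values of Dlk1 show where the C57 samples part. In C57 NAc they were -2.77 and 3.38 in the controls and -0.84, 3.46, 2.57 and 3.1 in the RCF samples. In C57 mPFC they were -3.90, -1.68 and 1.96 in the controls and 2.19, -3.50, -0.40 and -2.23 in the RCF samples. The 2 low NAc values and the 2 high mPFC values belong to the 4 C57 samples whose striatal and cortical markers went against their labels. Without them the difference was 5.63 ± 0.57 (49.5-fold, adjusted p = 3.2e-06). Calcr split in the same way, with -5.87 and -4.08 in those 2 NAc samples and 0.27 to 0.69 in the other 4, and its difference without the samples in doubt was 6.26 ± 0.77 (adjusted p = 1.8e-05). Peg10 (4.79 ± 0.45, adjusted p = 1.7e-06), Asb4 (3.19 ± 0.59), Magel2 (2.66 ± 0.41), Zim1 (2.45 ± 0.45) and Nnat (2.14 ± 0.37) followed. Over the arrays not in doubt, Calcr and Peg10 were each well above background on 3 of 5 C57 mPFC arrays and Zim1 on 4 of 5, and all 3 on 5 of 5 C57 NAc arrays, so these differences are given without a fold. The paternal genes had 12 higher and 1 lower of 19 (median 0.91) and the maternal genes 5 higher and 1 lower of 11 (median 0.30).

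**Figure D3:**
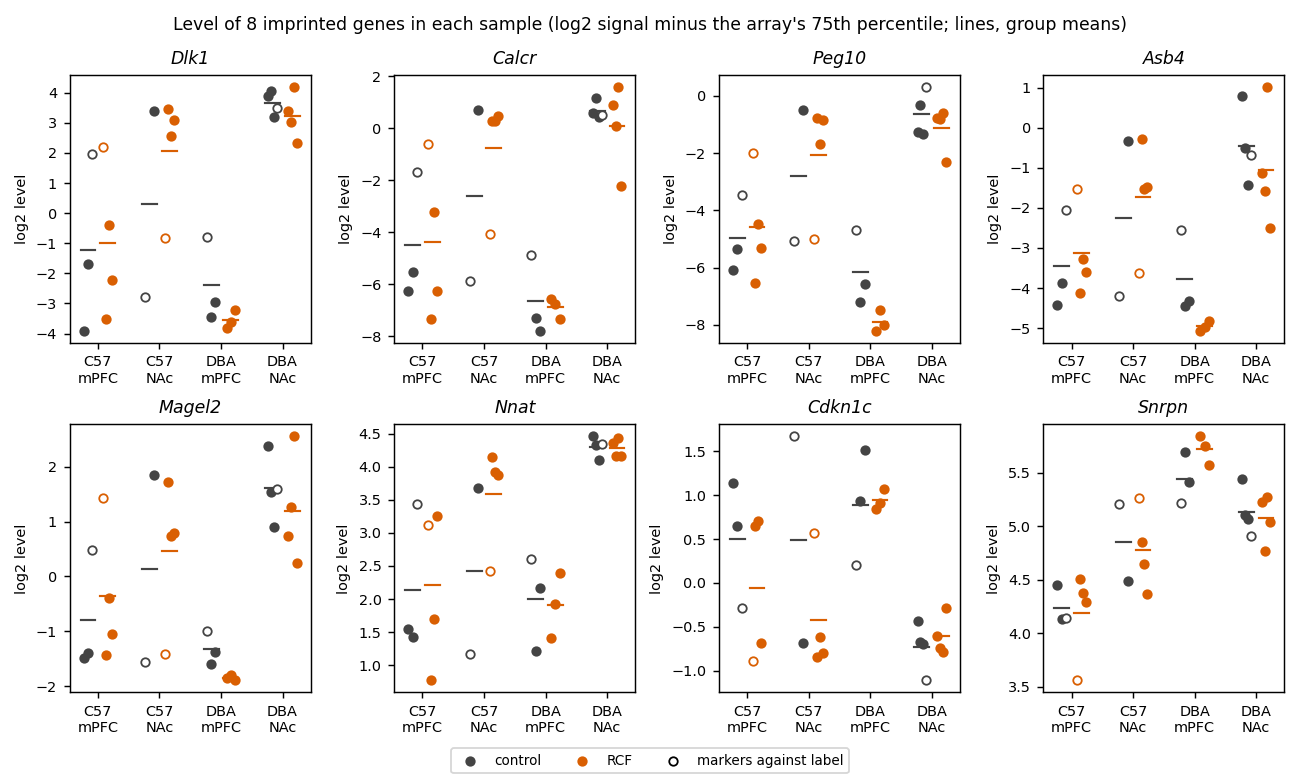
Level of 8 imprinted genes in each sample (log2, with the array's 75th percentile at 0), by strain and tissue, with controls in grey and RCF samples in orange. Lines are group means and open symbols mark the 6 samples whose markers went against their label. Open C57 NAc symbols of Dlk1 sit at -2.77 and -0.84 and the filled ones between 2.57 and 3.46.

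Markers of striatal and cortical neurons moved with the regional contrast, and markers of other cell types were counted beside them. The 10 striatal markers were all higher in the NAc of DBA mice, and the 8 cortical markers were all higher in their mPFC. Of 12 markers of the hypothalamus and preoptic area 9 were measured, of which 6 were higher and 1 lower in DBA NAc. Their mean level ran from -2.87 to 0.27 in DBA NAc and from -3.97 to -3.46 in DBA mPFC. It was highest in DBA NAc control 1 (0.27) and next in DBA NAc RCF 3 (-0.78). The mean striatal level of these 2 samples was 2.47 and 2.53, against a median of 4.66 over DBA NAc. Among the defining transcription factors, Nkx2-1 was well above background on 8 of 8 DBA NAc arrays and 1 of 8 DBA mPFC arrays and Fezf1 on 8 and 0, whereas Sim1, Otp and Hmx2 were so on at most 2 of 8 DBA NAc arrays. Of the 22 imprinted genes called in DBA, 20 stayed called without DBA NAc control 1 and 21 without DBA NAc RCF 3. The 2 samples were not left out together. In C57 without the samples in doubt, 3 hypothalamic markers were higher and 0 lower, and over all C57 NAc samples the mean level ran from -3.61 to -2.56. The 5 septal markers gave 2 higher and 1 lower in DBA. Of 6 measured markers each, choroid plexus gave 3 higher and 1 lower in DBA NAc, oligodendrocytes 3 and 1, astrocytes 2 and 0, endothelium 0 and 2, and microglia 0 and 5. Over all features 19.5% were higher and 37.2% lower. Lists of 5 or 6 markers are too short to set against these shares, and their counts are not read as a result. With each sample's striatal minus cortical marker level as a covariate, an alternative chosen after seeing the data, 2 of 34 imprinted genes stayed called in DBA; that level itself separates the regions, from 3.44 to 7.43 in DBA NAc and from -2.85 to -0.16 in DBA mPFC. The part of any of these cell types in the differences was not tested.

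Promoters are shown for members that rose together in NAc, with each TGCCGC site of ZFP57 on either strand in capitals (GCGGCA is the same site read from the other strand). Sequences are from RefSeq on mouse build GRCm38.p6, written 5′ to 3′ on the gene's own strand, and end before the transcript starts. Zdbf2 is at chr1:63200108-63200357 on the plus strand, Nap1l5 at chr6:58907127-58907376 on the minus strand, Nnat at chr2:157559828-157560077 on the plus strand and Magel2 at chr7:62376729-62376978 on the plus strand. The stretch between the starts of Peg3 and Usp29 is chr7:6730463-6730558, given on the plus strand.
Zdbf2: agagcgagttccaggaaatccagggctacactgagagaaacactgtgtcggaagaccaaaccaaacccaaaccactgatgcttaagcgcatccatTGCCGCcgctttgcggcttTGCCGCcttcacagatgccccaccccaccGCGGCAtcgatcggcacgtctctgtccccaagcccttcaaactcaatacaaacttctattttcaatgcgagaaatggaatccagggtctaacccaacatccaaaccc
Nap1l5: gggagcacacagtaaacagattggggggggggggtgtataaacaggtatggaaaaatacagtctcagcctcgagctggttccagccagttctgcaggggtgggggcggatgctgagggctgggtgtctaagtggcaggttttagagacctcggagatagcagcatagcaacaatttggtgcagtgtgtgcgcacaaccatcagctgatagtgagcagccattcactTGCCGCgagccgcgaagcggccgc
Nnat: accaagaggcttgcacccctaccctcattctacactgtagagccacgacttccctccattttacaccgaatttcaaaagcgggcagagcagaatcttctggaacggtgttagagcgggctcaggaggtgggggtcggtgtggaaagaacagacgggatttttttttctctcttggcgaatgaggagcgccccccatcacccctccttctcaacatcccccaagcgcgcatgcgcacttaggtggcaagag
Magel2: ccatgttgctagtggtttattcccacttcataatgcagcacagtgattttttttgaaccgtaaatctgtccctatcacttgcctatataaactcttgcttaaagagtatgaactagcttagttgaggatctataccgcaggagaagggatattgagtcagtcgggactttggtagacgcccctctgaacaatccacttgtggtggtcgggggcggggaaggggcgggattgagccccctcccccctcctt
Peg3-Usp29: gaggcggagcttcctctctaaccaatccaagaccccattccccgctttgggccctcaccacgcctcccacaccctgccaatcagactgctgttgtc
Zdbf2 holds 3 sites and Nap1l5 holds 1 in these stretches, and the other 3 stretches hold none. Only 96 bases separate the starts of Peg3 and Usp29, 2 genes that differed by 1.66 and 1.53 between the regions. Promoter windows of 300 bases, 250 before and 50 after a start, were found for 31 of the 37 genes. At least 1 site lay in a window of 12 of these 31 genes (38.7%), against 13.1% of 27025 genes and 11.6% of 32851 windows. Of the genes higher in DBA NAc 8 of 17 with a window held a site, and of the others 4 of 14. These are matches of letters in a window, and binding or methylation was not measured here.

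Imprinted genes outside the list were taken by name as well, also with earlier results of these data known. Of 42 such genes 38 were tested, and in DBA the NAc had 13 of them higher, against 19.5% of all features, and 6 of them lower, against 37.2% of all features, with a median of 0.05. Ddc, the enzyme that makes dopamine and serotonin from their precursors, was higher by 2.33, Dlx5 by 1.80 and Airn, the antisense RNA of Igf2r, by 0.69. Cobl (-1.91), the serotonin receptor Htr2a (-1.23), Tspan32 (-1.11), Osbpl5 (-1.02) and the potassium channel Kcnk9 (-0.99) were lower. Of 20 genes of the imprinting machinery 19 were tested, and 4 were higher and 5 lower, against the same shares of all features. Zfp57 (-0.93), the methyltransferase genes Dnmt3b (-0.66) and Dnmt3l (-1.14), Dnmt1 (-0.36) and Tet3 (-0.82) were the lower ones, and Tet1 (0.67), Zfp445 (0.41), Arid4b (0.37) and Setdb1 (0.36) the higher ones.

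Between the strains, Snrpn in the mPFC had the smallest p-value. In mPFC, DBA exceeded C57 in 4 of 34 imprinted genes, where 29.1% of all features were higher, and lay below it in 5 of 34, where 19.1% of all features were lower. The median difference was -0.04 over the imprinted genes and 0.07 over all features, of which 60.3% of those called were higher, or 39.2% after normexp background correction. The 3 genes of the Prader-Willi/Angelman cluster that passed were all higher in DBA. Snrpn was 4.45, 4.13 and 4.14 in C57 controls and 3.56, 4.51, 4.38 and 4.29 in C57 RCF samples. In DBA it was 5.22, 5.69 and 5.41 in controls and 5.84, 5.75 and 5.57 in RCF samples. Values under the 2 strain labels did not overlap in mPFC. The lowest DBA value, 5.22, came from control 1, whose strain markers went against its label. In the NAc, C57 control 1 and 3 and C57 RCF 1, whose markers went against the NAc label, had 5.21 and 5.26. The mPFC difference of Snrpn was 1.37 ± 0.16 (2.58-fold, limma, adjusted p = 9.3e-07). A second Snrpn probe gave 1.18 and the dimmest of its 3 probes gave -1.52. Ube3a was higher by 0.55 ± 0.14 (1.47-fold, adjusted p = 0.0019) and Ndn by 0.86 ± 0.31 (1.82-fold, adjusted p = 0.025). Gnas, the stimulatory G-protein subunit, was higher by 0.43 ± 0.16 (1.35-fold, adjusted p = 0.027).

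Peg10, Zim1, Grb10, Inpp5f and Blcap were lower in DBA mPFC than in C57 mPFC. Peg10 had a difference of -2.25 ± 0.79 (adjusted p = 0.022), which stands for at least 2.22-fold because 1 of 8 DBA mPFC arrays was well above background. Its second probe gave 0.53, the other direction, so the direction of Peg10 between the strains rests on 1 probe. Zim1 (-1.52 ± 0.58, adjusted p = 0.034), Grb10 (-1.14 ± 0.32, 2.21-fold, adjusted p = 0.0054), Inpp5f (-0.88 ± 0.28, 1.84-fold, adjusted p = 0.014) and Blcap (-0.48 ± 0.18, 1.39-fold, adjusted p = 0.031) were the others. Leaving out C57 mPFC control 3, a sample in doubt, left 4 higher and 1 lower. Beside them, 4 of 10 striatal markers were lower in DBA mPFC than in C57 mPFC, and their part was not tested. Without the samples in doubt 3 imprinted genes were higher and 4 lower, against 27.2% and 16.8% of all features. Gnas and Blcap lost the call, Snrpn stood at 1.29 ± 0.12 (adjusted p = 5.4e-07) and Ndn at 1.13 ± 0.25 (adjusted p = 0.0017).

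In the NAc 11 of 34 imprinted genes were higher in DBA, where 12.8% of all features were higher, and 1 was lower, where 19.1% of all features were lower. The median was 0.45 over the imprinted genes and -0.02 over all features, of which 40% of those called were higher, or 50.5% after quantile normalization. Nnat (1.28 ± 0.43), Igf2 (0.91 ± 0.32), Usp29 (0.88 ± 0.28), Zdbf2 (0.88 ± 0.27), Peg3 (0.87 ± 0.24), Ndn (0.83 ± 0.31), Slc22a18 (0.70 ± 0.18), Mirg (0.54 ± 0.13), Impact (0.54 ± 0.14), Gnas (0.51 ± 0.16) and Ube3a (0.36 ± 0.14) were higher, with adjusted p from 0.003 to 0.046. Blcap was lower (-0.80 ± 0.18, adjusted p = 0.0016). Second probes of Nnat, Zdbf2, Peg3 and Gnas gave 1.36, 0.63, 0.92 and 0.35. That of Impact gave -0.02, so the call of Impact rests on 1 probe. Of the paternal genes 7 of 19 were higher, and of the maternal genes 3 of 11. Beside them, 3 of 9 hypothalamic markers were higher and 1 lower in DBA NAc, with and without the samples in doubt (median 0.94 and 0.55). Striatal and cortical markers had medians of 0.88 and -1.27 with all samples and -0.39 and 0.24 without those in doubt; the part of these cells was not tested.

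Most of these NAc calls depended on the samples in doubt. Without the samples in doubt 4 genes were higher and 1 lower, against 9.14% and 14.3% of all features: Slc22a18 (0.74 ± 0.19, adjusted p = 0.0083), Gnas (0.67 ± 0.16, adjusted p = 0.0061), Snrpn (0.58 ± 0.13, adjusted p = 0.0042), Mirg (0.35 ± 0.12, adjusted p = 0.033) and the lower Blcap (-0.65 ± 0.21, adjusted p = 0.03). Nnat then differed by 0.46 and Peg3 by 0.49. Leaving out C57 NAc control 1 and 3 alone left 1 gene higher and 1 lower, and leaving out C57 NAc control 2 and 4 gave 17 higher and 2 lower. By its brightest probe, the higher level of Snrpn in DBA was thus found in mPFC with and without those samples and in NAc only without them. With all samples its second probe gave 0.32 in NAc and 1.18 in mPFC. Its dimmest probe, well above background on 31 arrays, gave -1.45 and -1.52, the other direction, so the probes of Snrpn disagreed.

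**Figure D4:**
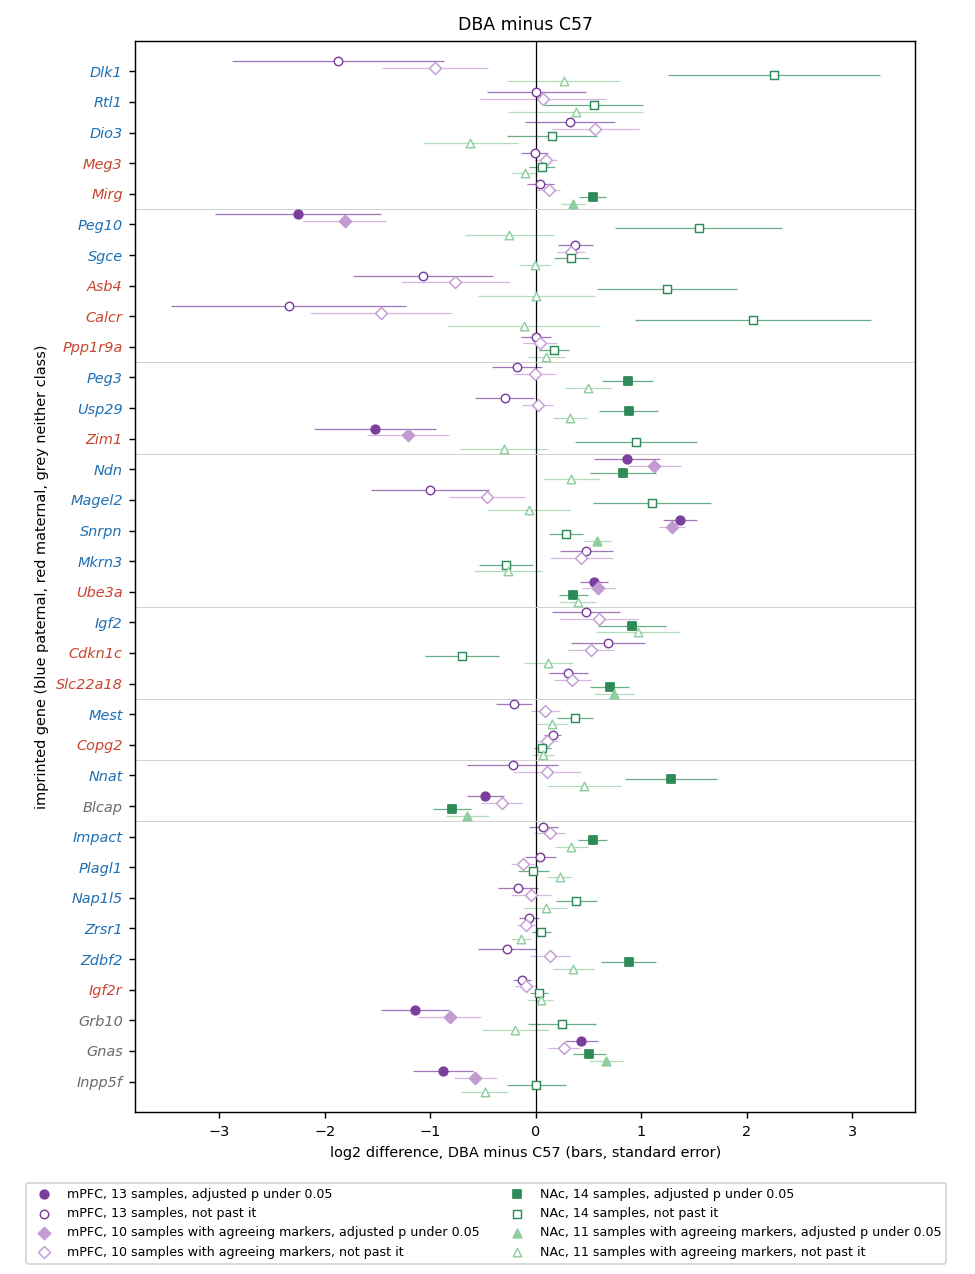
Difference between DBA and C57 for each tested imprinted gene (log2, bars are standard errors) in mPFC (13 samples, or 10 with agreeing markers) and NAc (14 samples, or 11). Filled symbols passed an adjusted p under 0.05. Snrpn lies at 1.37 and 1.29 in mPFC and at 0.29 and 0.58 in NAc, and the NAc values of Dlk1, Calcr and Peg10 move from 2.26, 2.06 and 1.54 to 0.27, -0.11 and -0.25 without the samples in doubt.

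Whether the regional difference itself differed between strains was tested as DBA minus C57 of the difference between NAc and mPFC. Larger and smaller refer here to this signed value. It was larger in DBA for 10 of 34 imprinted genes, where 9.91% of all features were higher. It was smaller for 2 of 34, where 21.6% of all features were lower. The 10 were Dlk1 (4.13 ± 1.42), Zim1 (2.48 ± 0.82), Magel2 (2.11 ± 0.79), Grb10 (1.39 ± 0.45), Usp29 (1.17 ± 0.40), Zdbf2 (1.16 ± 0.38), Peg3 (1.05 ± 0.34), Mirg (0.50 ± 0.18) and, with no value because a DBA mPFC group was not well above background, Calcr and Peg10. Cdkn1c (-1.39 ± 0.49) and Snrpn (-1.08 ± 0.23) were the 2 smaller ones. Cdkn1c was lower in NAc than in mPFC, so its smaller signed value is a wider regional difference in DBA. Of all called features 31.5% were higher, or 55.0% after normexp. Leaving out C57 NAc control 1 and 3 left 1 call, C57 mPFC control 3 left 4, DBA mPFC control 2 and 4 left 6, and C57 mPFC RCF 1 or DBA mPFC control 3 left 7. Without the samples in doubt 0 were larger, against 3.83% of all features, and 1 was smaller, against 15% of all features (limma; 4 of 34 at an unadjusted p under 0.05). That gene was Snrpn, at -0.71 ± 0.18 (adjusted p = 0.013), which was lower in NAc than in mPFC in DBA (-0.49) and not in C57 (0.22). The Snrpn call rests on its brightest probe. With all samples that probe differed between strains by 0.29 in NAc and 1.37 in mPFC, and the second by 0.32 and 1.18. The dimmest probe, well above background on 31 arrays, gave -1.45 and -1.52, nearly alike. Markers moved with the interaction contrast too: 3 of 10 striatal markers were higher (median 2.63, and 0.63 without the samples in doubt) and 2 of 8 cortical markers lower (median -2.11, and 0.005). Of 9 hypothalamic markers 3 were higher (median 1.62), and 4 when the samples in doubt were left out (median 1.18). Their part was not tested.

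Between RCF and control samples 1 imprinted gene was called, in 1 of the 4 strain and region groups. In C57 NAc, 1 of 34 was called, against 0.577% of all features in either direction (11.5% of them higher, or 28.6% after quantile normalization). The gene was Blcap, at 3.28 and 2.45 in the 2 controls and 1.23, 1.75, 1.90 and 1.32 in the 4 RCF samples, a difference of -1.31 ± 0.28 (2.48-fold, adjusted p = 0.033). The controls lay above all RCF samples, and above the highest value of any other group, 1.95. The control of 3.28 was 1 of the samples whose markers went against their label; without the samples in doubt the difference was -0.79 ± 0.34 (adjusted p = 1), with 1 control sample assumed to vary like the others. It was also lost when only these 2 groups were fitted and when RCF 1, RCF 2, RCF 4 or control 1 and 3 was left out; without control 2 and 4 there were 4 calls. Striatal markers had a median difference of 1.22 and cortical markers of -0.97 between these 2 groups, and their part was not tested.

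In the other 3 groups limma called none of the 34 genes, against 0% of all features in C57 mPFC, 0% in DBA mPFC and 0% in DBA NAc. At an unadjusted p under 0.05 there were 1, 1 and 0 of the 34, and 749, 467 and 609 of the 30165 features. In C57 mPFC the smallest p-values belonged to Rtl1 (1.37 ± 0.64, well above background on 0 of 3 C57 mPFC control arrays), Dio3 (0.79 ± 0.58) and Cdkn1c (-0.55 ± 0.48). In DBA mPFC they belonged to Ube3a, Peg10 and Inpp5f. Ube3a was -0.25, 0.45 and 0.14 in the controls and 0.64, 0.81 and 0.51 in the RCF samples, a difference of 0.54 ± 0.20 (adjusted p = 1); the RCF values lay above the controls, of which the lowest was the sample in doubt. Inpp5f differed by -0.61 ± 0.41, and Peg10 was not well above background in the RCF group. In DBA NAc the smallest belonged to Grb10 (-0.63 ± 0.41), Dio3 (-0.74 ± 0.54) and Inpp5f (-0.43 ± 0.36). The median difference of the 34 genes was 0.08 in C57 mPFC, 0.25 in C57 NAc, -0.03 in DBA mPFC and -0.11 in DBA NAc, and over all features it ran from -0.01 to 0.01. With the samples in doubt left out it was 0.11, -0.06, -0.01 and -0.14 for the 34 genes, in the same order, so the sign in C57 NAc turned.

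**Figure D5:**
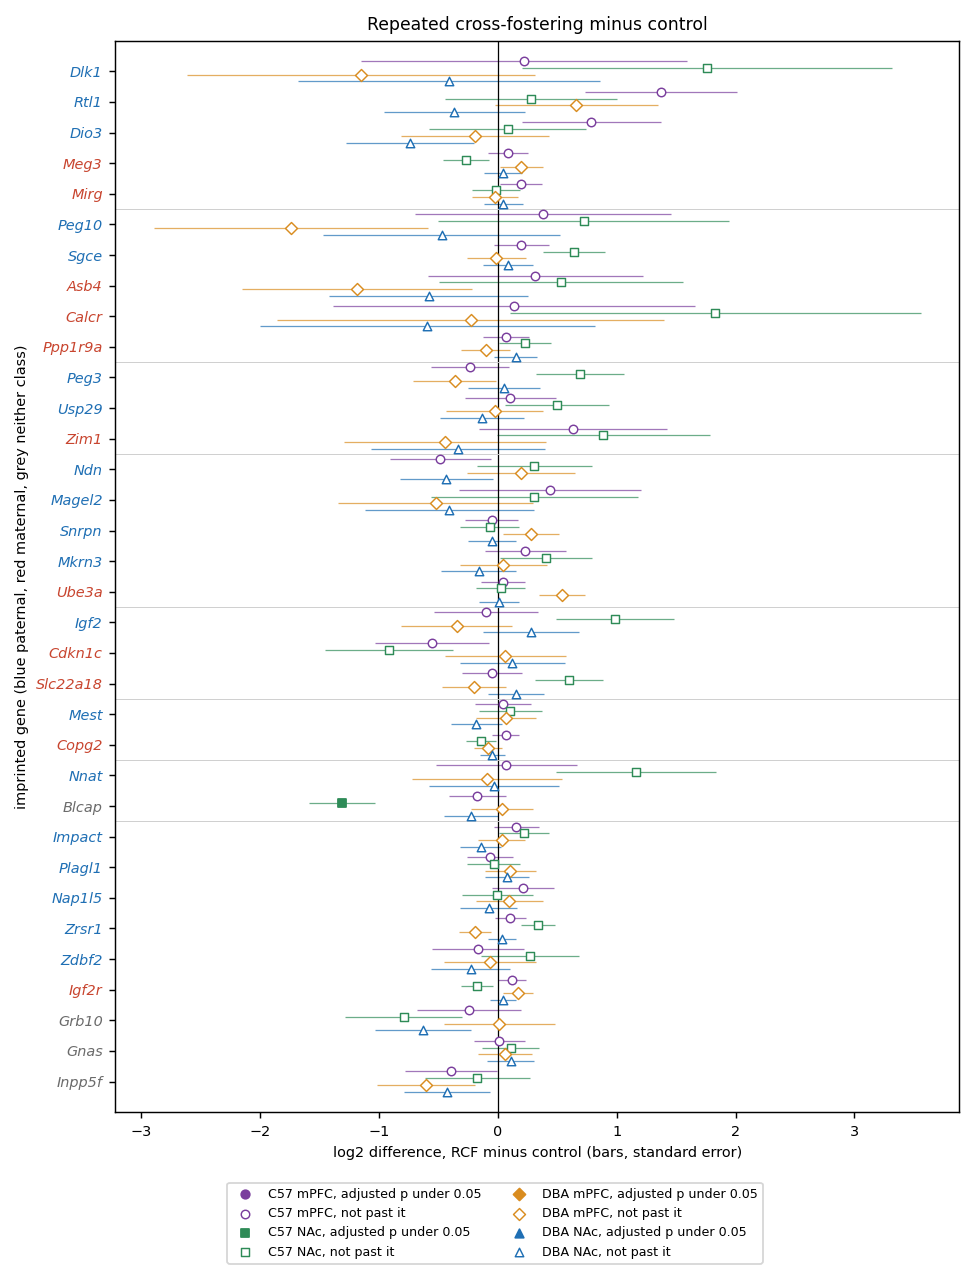
Difference between RCF and control samples for each tested imprinted gene in the 4 strain and region groups (log2, bars are standard errors). Filled symbols passed an adjusted p under 0.05. Blcap in C57 NAc, at -1.31, is the single filled symbol, and Dlk1, Peg10, Asb4 and Calcr have the widest bars.

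No imprinted gene passed the test of a strain difference in the response to cross-fostering in mPFC, against 0% of all features, or in NAc, against 0% of all features. At an unadjusted p under 0.05 limma gave 0 of 34 in mPFC (443 of 30165 features) and 1 of 34 in NAc (2316 features), and that 1 was Blcap (1.08 ± 0.36, adjusted p = 0.44). In mPFC the smallest p-values belonged to Ube3a (0.50 ± 0.27), Zrsr1 (-0.30 ± 0.19) and Peg10, and in NAc to Blcap, Zrsr1 (-0.31 ± 0.19) and Sgce (-0.55 ± 0.34), all with an adjusted p of 0.44 or more. Paternal genes had a median of -0.63 and maternal genes of -0.02 for this contrast in NAc, and of -0.18 and 0.06 without the samples in doubt. In mPFC they had medians of -0.16 and -0.15, and of -0.15 and -0.04 without them.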

How the data were processed

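RNA from 31 samples was hybridised singly to one-colour Agilent mouse arrays. Per the file headers, the authors scanned each array in Cy3 and read it with Agilent Feature Extraction 10.7.3.1, which gave background-corrected intensity per spot and the flags for spots above background or marked as outliers. The authors' deposited value table holds log2 values of the same arrays; limma is named in the submitters' processing notes, and which rule kept its probes is not given in the sources used here. It served to give each scanner file its sample.

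Levels were log2 processed signals, from which each array's 75th percentile was subtracted. A feature was kept where at least 3 arrays of 1 group had it well above background, and the brightest probe stood for a gene. Near-identical arrays were averaged. Differences were fitted over all 8 groups with limma 3.58.1 in R 4.3.3 (lmFit, eBayes, Benjamini-Hochberg over all features), and treatments were weighted equally in strain and region contrasts. The script was tested on simulated data. Full values were given for at most 12 called genes per comparison by absolute difference, with their cluster neighbours, and otherwise for the 3 smallest p-values. The members and lists were chosen with earlier results of these data known. For the normexp alternative the median signal was used, since the mean signal was not in the tables analysed here. Scaling, filters, probe choice, sample map, averaging, replicate numbers, array weights and single samples were varied as alternatives. Where a count in an alternative fit has no share of all features beside it, it shows only how the calls held.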

Additional observations from a re-analysis of the deposited data

Results flagged for a closer look

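In groups of 4 samples, 1 sample stood far from the other 3 in 10 of 135 checks of single imprinted genes (7.41%), where chance gives about 1 in 20 groups, and 6 of the 10 fell in samples whose markers went against their labels. In C57 NAc RCF 1, Ndn was lowest at 1.95 (next 3.38), Nnat lowest at 2.43 (next 3.87), Dio3 lowest at -3.75 (next -1.87), Calcr lowest at -4.08 (next 0.27) and Cdkn1c highest at 0.57 (next -0.62). Peg3 was highest in C57 mPFC RCF 1 at 1.61, with the next sample at 0.59. In samples whose markers matched their labels, Peg10 was lowest in DBA NAc RCF 4 at -2.30 (next -0.81) and Ppp1r9a was lowest in DBA NAc RCF 3 at 4.29 (next 4.94). Zrsr1 was highest in DBA NAc RCF 3 at 3.11 (next 2.85) and lowest in DBA NAc control 3 at 2.66 (next 2.92).

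The difference between NAc and mPFC differed between the strains for 12 imprinted genes by the interaction test in limma, given as DBA minus C57 on the log2 scale. It was positive for Dlk1 (4.13), Zim1 (2.48), Magel2 (2.11), Grb10 (1.39), Usp29 (1.17), Zdbf2 (1.16), Peg3 (1.05) and Mirg (0.50). The fitted values of Calcr (4.41) and Peg10 (3.80) include DBA mPFC RCF samples that were well above background on 0 of 4 arrays and are no measured sizes. It was negative for Cdkn1c (-1.39) and, by its brightest probe, Snrpn (-1.08). The dimmest Snrpn probe differed between strains by nearly as much in NAc (-1.45) as in mPFC (-1.52). Without the samples in doubt Snrpn alone passed, at -0.71.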

How the results depend on the processing

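The 22 calls between regions in DBA were 20 to 22 when any 1 sample was left out, and all 22 stayed without the samples in doubt; the counts of calls below are of 34 imprinted genes. With each scanner file kept under the sample it was listed with, there were 4, 4, 6 and 2 calls for RCF in C57 mPFC, C57 NAc, DBA mPFC and DBA NAc, 16 and 20 between strains in mPFC and NAc, 0 between regions in C57 and 0 in DBA, 3 and 1 for strain by treatment in mPFC and NAc, and 0 for strain by tissue. Under that map strain values changed sign in mPFC for Blcap (0.50), Gnas (-0.10), Grb10 (0.78), Inpp5f (1.08), Peg10 (3.95) and Zim1 (1.84) and in NAc for Blcap (0.45) and Gnas (-0.27). Region values in DBA changed sign for Asb4 (-0.04), Grb10 (-0.06), Inpp5f (-0.05), Mest (-0.01), Mirg (-0.07), Nap1l5 (-0.07), Slc22a18 (-0.11), Zdbf2 (-0.0017) and Zim1 (-0.03). Without the samples in doubt there were 0 calls for RCF in C57 NAc, 5 between strains in NAc, 20 between regions in C57 and 1 for strain by tissue. Fitting only the groups compared gave 0 for RCF in C57 NAc and 0 between regions in C57, array weights gave 16 between strains in mPFC and 14 between regions in C57, and normexp gave 6 for strain by tissue. Between regions in C57, quantile normalization gave 4 calls, the other percentile 5, the mean of all probes 4 and no averaging 8. Only probes above background on all arrays turned Asb4 to -0.77, from its second probe. Among alternatives chosen after seeing the data, the striatal minus cortical marker level as a covariate gave 1 call between regions in C57, 2 in DBA and 1 for strain by tissue, and changed the sign in DBA of Cdkn1c (0.08), Meg3 (-0.03), Sgce (-0.22) and Snrpn (0.20). Control mice alone gave 1 and 4 calls between strains in mPFC and NAc, 0 between regions in C57 and 0 for strain by tissue, and RCF mice alone gave 5, 1, 1 and 2. The cause was not tested. Leaving out 1 sample at a time gave 0 to 4 calls for RCF in C57 NAc, 0 to 0 in the other RCF and strain by treatment comparisons, 5 to 11 and 2 to 19 between strains in mPFC and NAc, 0 to 13 between regions in C57 and 1 to 18 for strain by tissue. Deviations from group means had a mean correlation of -0.001 over 105 between-group pairs of arrays sharing a replicate number, against 0.001 over 315 others. Single values with a shared number ran from -0.595 to 0.619. Many of these pairs cross strain or treatment, so the means cannot say whether NAc and mPFC of 1 mouse were paired. With no arrays averaged and the replicate number as a block there were 7 calls between regions in C57, 24 in DBA and 14 for strain by tissue. Array numbers of 2 to 4 samples a group limit the precision, and Rtl1, Peg10, Calcr and Zim1 lie near background in mPFC.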
